A study of Mus musculus with 12 samples.

Results

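The genes described here are 10 components and reported targets of the Wnt and beta-catenin pathway, measured in mouse podocytes exposed to fluid flow shear stress: Axin2, Ctnnb1, Lef1, Nkd1, Nkd2, Lgr5, Rnf43, Ccnd1, Sox4 and Gsk3b. They were listed by name, with earlier results of these data known. Each took the row of the deposited table that the platform annotation gives to that gene symbol alone. All 10 had 1 such row, out of 14860 genes named in this way. Podocytes are the epithelial cells that wrap the filtering capillaries of the kidney, and the cells here were a conditionally immortalized line of them. The line came from the Immortomouse, per the labels' protocols, so cells of all groups carry the thermosensitive T antigen tsA58. They grew at 33 °C in the presence of γ-interferon, which turns that antigen on, and then differentiated at 37 °C, with day 14 as the day of use. Sheared cells received 2 dynes/cm2, at a flow of 75 ml/min, for 2 h, and were harvested when shear stopped (End), 2 h later (Post-2hr) or 24 h later (Post-24hr), while Control cells shared the hood and incubator but had no shear. Each of these 4 groups holds 3 exon arrays, numbered 1 to 3, with 1 log2 level per gene. All cells are of 1 line. Separate cultures are not named for the 3 samples of a group, and a p-value then measures only how far these samples spread, which can be technical.

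In the canonical Wnt pathway, a destruction complex built on axin and containing GSK3 beta marks beta-catenin for degradation, and a Wnt ligand bound to a Frizzled receptor and an LRP co-receptor stops it. Beta-catenin then accumulates, enters the nucleus and works with the DNA-binding proteins of the TCF/LEF family on target genes, several of which (Axin2, Nkd1, Rnf43) feed back to restrain the pathway. Beta-catenin also holds cadherins to the cytoskeleton at cell contacts, and in podocytes forced activation of the pathway is known to injure the filtration barrier. Because the pathway is switched largely through the amount and place of the beta-catenin protein, transcript levels show its components and targets, not its activity.

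Promoter sequences are shown for the gene with the largest F over the 4 groups (Lef1, at 2 of its 4 annotated start sites), for the DNA-binding factor that ranked next to it (Sox4) and for the feedback gene most used as a readout of the pathway (Axin2). They are RefSeq sequences on GRCm38.p6 and run 5′ to 3′ on the gene's own strand from 250 bases before to 50 bases after an annotated start. Capitals mark the letters CTTTG on either strand, the core of the TCF/LEF recognition sequence, or a longer match on either strand, CTTTG followed by AA, AT, TA or TT, which contains that core.
Lef1, start site 1, chr3:131110047-131110346, + strand: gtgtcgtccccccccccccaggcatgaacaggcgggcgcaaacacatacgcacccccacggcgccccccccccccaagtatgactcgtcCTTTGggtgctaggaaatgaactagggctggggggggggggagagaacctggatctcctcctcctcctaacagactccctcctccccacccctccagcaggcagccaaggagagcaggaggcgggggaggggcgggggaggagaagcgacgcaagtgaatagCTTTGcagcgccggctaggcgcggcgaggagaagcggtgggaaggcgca
Lef1, start site 4, chr3:131156044-131156343, + strand: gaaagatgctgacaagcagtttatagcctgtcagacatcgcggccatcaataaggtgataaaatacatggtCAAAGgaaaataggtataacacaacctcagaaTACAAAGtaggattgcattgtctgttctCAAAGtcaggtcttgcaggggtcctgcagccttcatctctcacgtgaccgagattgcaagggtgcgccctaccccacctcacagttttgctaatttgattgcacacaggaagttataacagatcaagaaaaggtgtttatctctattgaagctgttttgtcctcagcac
Sox4, start site 1, chr13:28953650-28953949, - strand: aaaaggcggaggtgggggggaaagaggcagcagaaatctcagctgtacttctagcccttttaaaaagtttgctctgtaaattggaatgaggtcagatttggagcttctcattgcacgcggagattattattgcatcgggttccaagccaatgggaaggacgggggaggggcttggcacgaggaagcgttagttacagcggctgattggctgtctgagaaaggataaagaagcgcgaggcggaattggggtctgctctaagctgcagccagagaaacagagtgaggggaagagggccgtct
Axin2, start site 1, chr11:108920099-108920398, + strand: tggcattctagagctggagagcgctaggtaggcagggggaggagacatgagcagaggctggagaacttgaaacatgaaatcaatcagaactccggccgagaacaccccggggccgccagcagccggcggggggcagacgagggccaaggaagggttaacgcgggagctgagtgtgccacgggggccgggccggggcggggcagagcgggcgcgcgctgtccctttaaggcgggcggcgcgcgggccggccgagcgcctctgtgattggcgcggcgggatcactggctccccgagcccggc
Windows were given for 8 of the 10 genes, 13 in all, and 1 of the 13 held the longer motif, against 16.9% of all 32851 mouse windows. That match is TACAAAG in the window of Lef1 start site 4, beginning at position -147 from the start. The 5-letter core was in 5 of the 13 windows, all 4 of Lef1 and the 1 of Gsk3b, and in 53.9% of all windows, so short matches are common. The windows of Lef1 start sites 1 and 2 overlap and hold the same 2 core matches, and the 2 windows of Ctnnb1 overlap as well. All the matches are of letters in a window and nothing else. The windows of Sox4 and Axin2 held no match, which says only that the letters are absent from these 300 bases.

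Across the series, replicate 1 of every group stood apart. On the first principal component, with 42.4% of the variance, the 4 replicate 1 arrays lay between -53.2 and -26.7 and the other 8 between 3.00 and 34.5. With the group held, 30.5% of the 23332 rows differed between replicate 1 and replicates 2 and 3 at an adjusted p under 0.05 in limma. Differences are therefore also given within replicates 2 and 3. Of 13 podocyte markers, 9 had a value, between the 18.2th (Ptpro) and the 99.6th (Actn4) percentile of row means, with Wt1 at the 53.9th and Nphs1 (nephrin) at the 45.2th. Among markers of other cell types, 6 tubule markers lay between the 16.4th and the 99th and 7 mesangial and fibroblast markers between the 13th and the 100th. The 6 measured macrophage and leukocyte markers lay between the 11.7th and the 62.3th, and 7 endothelial markers between the 10.5th and the 39.6th. A place in that order also reflects how well a gene's probes bind, and detection was not called. Summed over a culture, fewer cells with a transcript and less of it per cell cannot be told apart.

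None of the 10 genes passed an adjusted p of 0.05 in limma in any of the 6 comparisons between groups, nor did any pass in an ordinary linear model without variance moderation. The share of all rows that did was 0% for End minus Control, 0.0171% for Post-2hr minus Control, 0% for Post-24hr minus Control, 0.0257% for Post-2hr minus End, and 0% both for Post-24hr minus Post-2hr and for Post-24hr minus End. In the test for any difference among the 4 groups, with 0.00857% of all rows past the threshold, Lef1 came first of the 10 (F = 8.34, limma adjusted p = 0.618) and Sox4 next (F = 3.82, limma adjusted p = 0.903), and the other 8 had an adjusted p of 1. At an unadjusted p under 0.05 in limma, 1 of the 10 genes differed in End minus Control, 0 in Post-2hr minus Control and 1 in Post-24hr minus Control, against 3.62%, 5.64% and 2.4% of all rows. In Post-2hr minus End, Post-24hr minus Post-2hr and Post-24hr minus End, 0, 1 and 2 did, against 6.24%, 5.71% and 5.77%. The median difference from Control over the 10 genes was 0.07 at End, 0.07 at Post-2hr and -0.04 at Post-24hr, where the median over all genes was 0.02, -0.0066 and -0.0029. The mean was above Control for 7 of 10 genes at End, 7 at Post-2hr and 2 at Post-24hr, and over all rows for 54.2%, 44.7% and 50.7%.

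**Figure D1:**
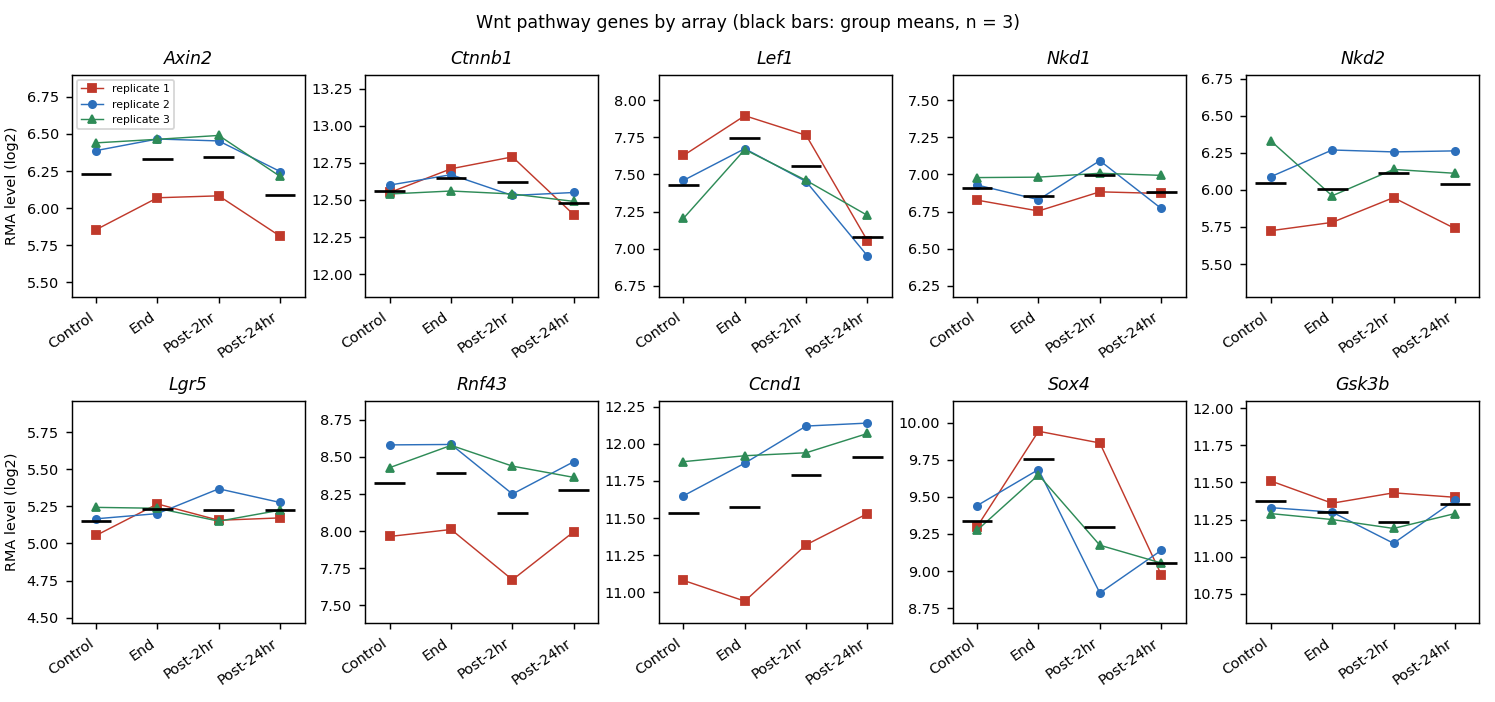
RMA level (log2) of each of the 10 genes on each of the 12 arrays, with the groups in order of harvest on the x axis, 1 colour and marker per replicate number and black bars for the means of 3 arrays. Lef1 and Sox4 were highest at End and lowest at Post-24hr, whereas for Axin2, Nkd2, Rnf43 and Ccnd1 the replicate 1 line lay below the other 2 in every group.

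Ctnnb1 encodes beta-catenin, the protein the pathway regulates. Its mean level lay at the 99th percentile of rows, and its group means spanned 0.17. It read 12.55, 12.60 and 12.54 on the Control arrays 1 to 3, 12.71, 12.67 and 12.56 at End, 12.79, 12.53 and 12.54 at Post-2hr and 12.40, 12.55 and 12.49 at Post-24hr. The End and Post-24hr arrays did not overlap, and every other pair of groups did. The order of the means was End, Post-2hr, Control and Post-24hr, and no neighbours in it separated. Post-24hr minus End was -0.17 ± 0.09 (SE, n = 3) log2 units, with a limma adjusted p of 0.946, and the difference was -0.31 in replicate 1 and -0.10 in replicates 2 and 3. Against Control, the 95% intervals of the difference ran from -0.12 to 0.29 at End, -0.15 to 0.27 at Post-2hr and -0.29 to 0.12 at Post-24hr.

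Gsk3b, the kinase of the destruction complex that marks beta-catenin, also lay high (95.2th percentile) and close to level. It read 11.51, 11.33 and 11.29 in Control, 11.36, 11.30 and 11.25 at End, 11.43, 11.09 and 11.19 at Post-2hr and 11.40, 11.38 and 11.29 at Post-24hr. All groups overlapped. The order of the means was Control, Post-24hr, End and Post-2hr, and Post-2hr minus Control was -0.14 ± 0.10 (SE, n = 3; limma adjusted p = 0.964). The interval of that difference, -0.37 to 0.09, spans 0.

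Lef1, a DNA-binding partner of beta-catenin that is itself a reported target of the pathway, had the largest F of the 10 genes. Its levels were 7.63, 7.46 and 7.20 on the 3 Control arrays, 7.90, 7.67 and 7.67 at End, 7.76, 7.45 and 7.46 at Post-2hr and 7.05, 6.95 and 7.22 at Post-24hr. Every End array was above every Control array, and every Post-24hr array was below every End and every Post-2hr array. The means ran 7.75 ± 0.13 at End, 7.56 ± 0.18 at Post-2hr, 7.43 ± 0.21 in Control and 7.08 ± 0.14 at Post-24hr (SD, n = 3 each). End and Post-2hr overlapped, as did Post-2hr and Control, and Control and Post-24hr touched through 1 array each.

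The End mean of Lef1 was 0.32 ± 0.14 (SE) log2 units above Control, 1.24-fold, with an unadjusted p of 0.0453 and an adjusted p of 1 in limma, and 0.34 above it within replicates 2 and 3. Post-24hr minus Control was -0.35 ± 0.14, with an unadjusted p of 0.0281 and an adjusted p of 1 in limma. That difference was -0.57 in replicate 1 and -0.24 within replicates 2 and 3. Matched by number it was -0.51 for number 2 and 0.02 for number 3, but the numbers are labels and do not pair the arrays. The span from End to Post-24hr, taken up after the values were seen, was larger and ran one way under every number. Post-24hr minus End was -0.67 ± 0.14, a 1.59-fold lower level, with -0.84, -0.72 and -0.44 for numbers 1, 2 and 3. Its unadjusted p of 0.00065 in limma ranked 42nd of 23332 rows, and the adjusted p was 0.361, or 0.0993 with replicate 1 set apart by a term of its own. From Post-2hr to Post-24hr the difference was -0.48 ± 0.14, with an adjusted p of 0.658 in limma.

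Sox4, an SRY-box transcription factor reported as a target of the pathway and as able to modulate beta-catenin, followed a similar order. It read 9.30, 9.44 and 9.28 in Control, 9.94, 9.68 and 9.65 at End, 9.86, 8.85 and 9.17 at Post-2hr and 8.98, 9.14 and 9.05 at Post-24hr. Every End array was above, and every Post-24hr array below, all Control arrays. The Post-2hr arrays spread more widely than those of any other group, from 8.85 to 9.86, with replicate 1 still at the End level.
The End mean was 0.42 ± 0.21 (SE, n = 3) above Control, 1.34-fold, with a limma adjusted p of 1, and 0.31 above it within replicates 2 and 3. Post-24hr minus Control was -0.28 ± 0.21, again with a limma adjusted p of 1, with -0.32, -0.30 and -0.22 for numbers 1 to 3. From End to Post-24hr the difference was -0.70 ± 0.21, 1.63-fold, with an unadjusted p of 0.00754 and an adjusted p of 0.669 in limma. It was -0.97 in replicate 1 and -0.57 within replicates 2 and 3.
At Post-2hr the 3 arrays went different ways against Control, by 0.56, -0.59 and -0.10, and the difference of means was -0.04.

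Counted over the 10 genes, 2 were higher at End than in Control without overlap (Lef1 and Sox4), where 7.63% of all rows did not overlap and 4.69% were higher. At Post-2hr 0 of 10 did so against 9.09% of rows, and at Post-24hr 1 was lower (Sox4) against 5.61% in both directions and 2.91% lower. Between harvests, 0 of 10 separated in Post-2hr minus End against 12% of rows, and 1 was lower in Post-24hr minus Post-2hr (Lef1) against 10.2%, with 4.55% lower. In Post-24hr minus End, 3 of 10 were lower (Ctnnb1, Lef1 and Sox4) against 11.7% in both directions and 6.84% in that one.

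**Figure D2:**
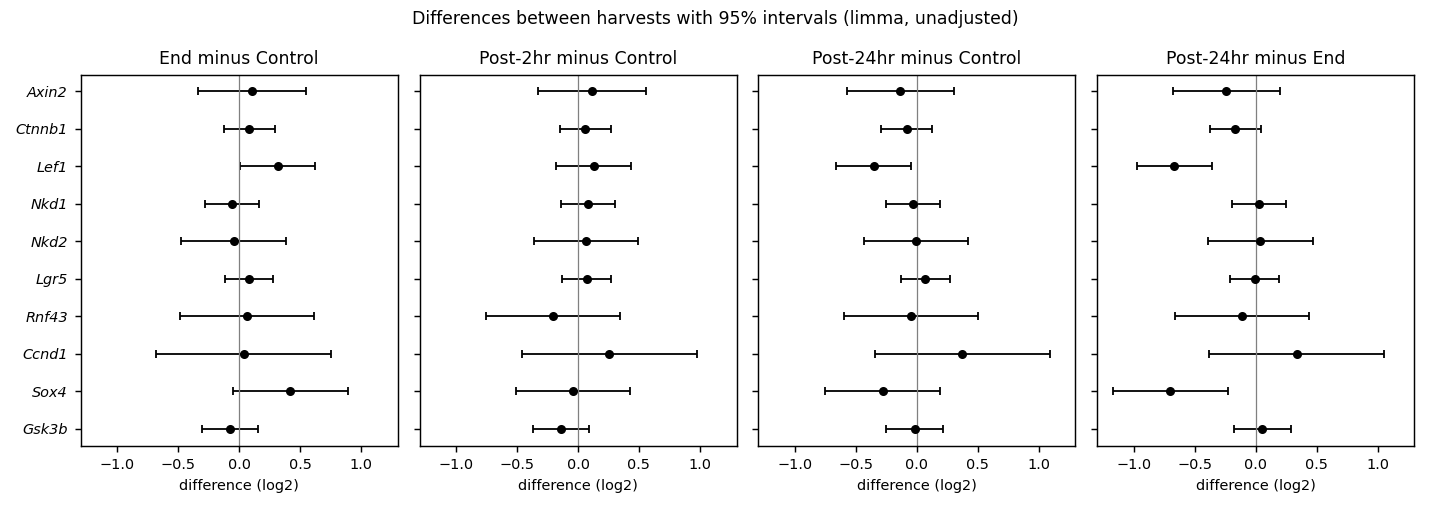
Difference of group means (log2, x axis) for the 10 genes in 4 comparisons, with unadjusted 95% intervals from limma. Intervals that leave 0 out belong to Lef1 in End minus Control, Post-24hr minus Control and Post-24hr minus End and to Sox4 in Post-24hr minus End, and none of these passed after adjustment over all rows.

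Axin2, the scaffold of the destruction complex that beta-catenin itself induces, had 5.86, 6.39 and 6.44 in Control, 6.07, 6.47 and 6.46 at End, 6.08, 6.45 and 6.49 at Post-2hr and 5.81, 6.25 and 6.21 at Post-24hr. Replicate 1 was the lowest array of every group, and all groups overlapped. Post-2hr and End had nearly the same mean, 6.34 and 6.33, followed by Control at 6.23 and Post-24hr at 6.09, and neighbours in that order did not separate.
The last step ran one way within each number. Post-24hr minus End was -0.26, -0.22 and -0.25 for numbers 1 to 3, and Post-24hr minus Post-2hr was -0.27, -0.21 and -0.28. Taken over the 3 arrays, the End to Post-24hr difference was -0.24 ± 0.20 (SE, n = 3), with a limma adjusted p of 0.999, and ± 0.06 with an adjusted p of 0.196 once replicate 1 was set apart. Leaving out 1 array moved it, to -0.374 without End replicate 1 and -0.103 without Post-24hr replicate 1. The Post-2hr to Post-24hr difference moved likewise, to -0.381 without Post-2hr replicate 1 and -0.111 without Post-24hr replicate 1. Against Control the mean differed by 0.11 at End, 0.11 at Post-2hr and -0.14 at Post-24hr, each with an SE of 0.20.

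Nkd1 and Nkd2 are the naked cuticle homologues, which bind Dishevelled and dampen the signal, and neither showed a pattern over the harvests. Nkd1 read 6.83, 6.93 and 6.98 in Control, 6.75, 6.83 and 6.98 at End, 6.88, 7.09 and 7.01 at Post-2hr and 6.87, 6.77 and 6.99 at Post-24hr. Its group means, highest at Post-2hr and lowest at End, spanned 0.14, and all groups overlapped. Nkd2 read 5.72, 6.09 and 6.33 in Control, 5.78, 6.27 and 5.96 at End, 5.95, 6.26 and 6.14 at Post-2hr and 5.74, 6.26 and 6.11 at Post-24hr.
Again all groups of Nkd2 overlapped, its means, highest at Post-2hr and lowest at End, spanned 0.11, and replicate 1 was the lowest array in each group. The 95% interval against Control ran from -0.44 to 0.42 for Nkd2 at Post-24hr and from -0.25 to 0.19 for Nkd1, so a moderate change of Nkd2 was not detectable with these arrays.

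Lgr5 is a receptor for R-spondins, which raise the number of Wnt receptors at the cell surface, and Rnf43 is the ubiquitin ligase that removes those receptors. Lgr5 lay in the lower part of the arrays' range, at the 24.1th percentile of row means and close to the lower quartile of all rows on each array (5.22 to 5.31). It read 5.05, 5.17 and 5.24 in Control, 5.27, 5.20 and 5.24 at End, 5.16, 5.37 and 5.15 at Post-2hr and 5.17, 5.28 and 5.22 at Post-24hr. All groups overlapped, and its means, highest at End and lowest in Control, spanned 0.08. Whether Lgr5 was detected above background was not tested.

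Rnf43 read 7.96, 8.58 and 8.43 in Control, 8.01, 8.58 and 8.58 at End, 7.67, 8.25 and 8.44 at Post-2hr and 7.996, 8.47 and 8.36 at Post-24hr. Replicate 1 was the lowest in each group by a wide margin, and all groups overlapped. From highest to lowest, the means stood in the order End, Control, Post-24hr and Post-2hr, and neighbours did not separate. Post-2hr minus End was -0.34, -0.33 and -0.14 for numbers 1 to 3, a mean difference of -0.27 ± 0.25 (SE, n = 3; limma adjusted p = 0.943), and ± 0.08 with a limma adjusted p of 0.212 once replicate 1 was set apart. It was -0.461 without End replicate 1 and -0.0474 without Post-2hr replicate 1.

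Ccnd1 encodes cyclin D1, which drives entry into the cell cycle and is a reported target of the pathway. It read 11.08, 11.65 and 11.88 in Control, 10.94, 11.87 and 11.92 at End, 11.32, 12.12 and 11.94 at Post-2hr and 11.53, 12.14 and 12.07 at Post-24hr. The lowest 4 of the 12 values were the 4 replicate 1 arrays. From lowest to highest, the means stood in the order Control, End, Post-2hr and Post-24hr, and no pair of groups separated. Post-24hr was 0.37 ± 0.32 (SE, n = 3) above Control, 1.29-fold, with a limma adjusted p of 1, and above it under each number, by 0.45, 0.48 and 0.19. It was 0.143 without Control replicate 1 and 0.565 without Post-24hr replicate 1. With replicate 1 set apart the SE was 0.10, the unadjusted p 0.0044 and the adjusted p 0.885 in limma.
Beside it, the median level of 16 G2 and M phase genes was 7.56, 8.36 and 8.53 on the Control arrays and 7.01, 9.30 and 9.32 at Post-24hr. Their median difference, Post-24hr minus Control, was 0.50, with -0.25 in replicate 1 and 0.86 within replicates 2 and 3, and 0 of 16 passed the adjusted threshold or an unadjusted p under 0.05 in limma. The part of cell cycle state in the Ccnd1 values was not tested.

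For 5 of the 10 genes the difference between replicate 1 and the other 2 replicates was larger than the span of the 4 group means. With the group held, replicate 1 minus replicates 2 and 3 was -0.73 ± 0.07 (SE) for Ccnd1, -0.55 ± 0.06 for Rnf43, -0.44 ± 0.05 for Axin2, -0.38 ± 0.08 for Nkd2 and 0.16 ± 0.05 for Gsk3b. The adjusted p in limma was 0.00014 for Ccnd1, 0.000232 for Rnf43, 0.000168 for Axin2, 0.00638 for Nkd2 and 0.0474 for Gsk3b. Thus 5 of 10 were called, 1 higher and 4 lower, where 30.5% of all rows were called, 19.5% higher and 11% lower. This split was seen in the same arrays, so these p-values describe it and do not test it afresh.
For the first 4 genes, all 4 replicate 1 arrays lay below all 8 others, from 10.94 to 11.53 against 11.65 to 12.14 in the case of Ccnd1. Lef1 and Sox4 went the other way, with replicate 1 higher by 0.20 ± 0.08 (limma adjusted p = 0.0948) and 0.24 ± 0.14 (limma adjusted p = 0.248). The same split was wide for the G2 and M phase genes, of which 15 of 16 were lower in replicate 1, with a median difference of -1.44. What makes replicate 1 differ is not recorded in the labels, and its part in the gene differences was not tested beyond the values given here.

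**Figure D3:**
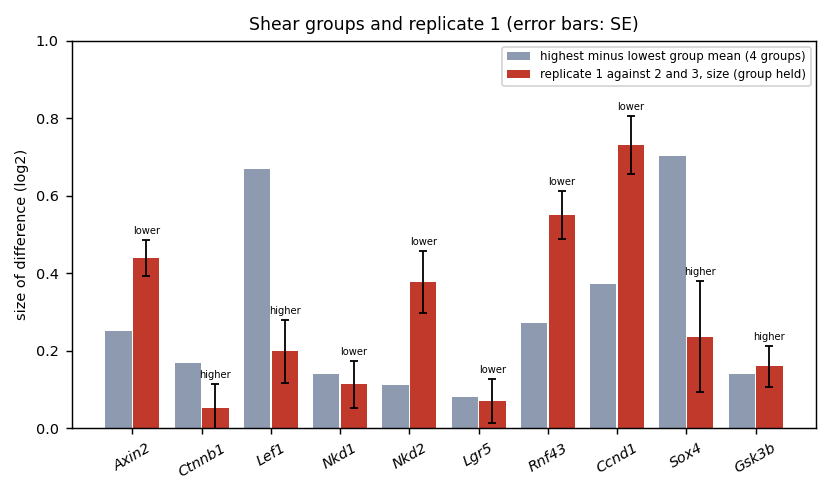
For each gene, the grey bar is the distance (log2) between the highest and the lowest of the 4 group means, and the red bar is the size of the difference between replicate 1 and replicates 2 and 3 with the group held, with its SE and direction. The red bar exceeded the grey one for Axin2, Nkd2, Rnf43, Ccnd1 and Gsk3b, and the grey one was the larger for Lef1 (0.67 against 0.20) and Sox4 (0.70 against 0.24).

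Genes of the pathway, members of the 10 among them, were also grouped by role, 9 lists in all, and calls were made in 1 of these lists. Listed genes without a row of their own symbol, such as Dkk1, Lgr4, Znrf3, Gsk3a and Tcf7, were not analysed here. Among 46 measured reported targets, 2 were called higher at Post-2hr than in Control, where 0.0171% of all rows were called: Plaur, the urokinase receptor, and Fosl1, a member of the AP-1 family. Plaur averaged 8.36 ± 0.13 (SD, n = 3) in Control and 9.90 ± 0.03 at Post-2hr, a difference of 1.54 ± 0.10 (SE) or 2.90-fold, with a limma adjusted p of 0.00079. Fosl1 averaged 7.92 ± 0.20 and 9.60 ± 0.29, a difference of 1.68 ± 0.18 or 3.20-fold, with a limma adjusted p of 0.0182. In Post-2hr minus End, with 0.0257% of rows called, Plaur was the 1 target called (1.02 ± 0.10, limma adjusted p = 0.0196), and with replicate 1 set apart Fosl1 was called too (1.19 ± 0.15, limma adjusted p = 0.034). Both answer to other signals as well, and both were named here because earlier results on these data had named them. The list was also chosen with earlier results known, so the count of 2 describes the list and is no test of it. At Post-24hr Plaur was still 0.80 ± 0.10 above Control, where its limma adjusted p was 0.372. The list also holds 7 of the 10 genes, and in the same comparison none of them passed: Axin2 differed by 0.11, Nkd1 by 0.08, Rnf43 by -0.20, Ccnd1 by 0.26, Lef1 by 0.13, Lgr5 by 0.07 and Sox4 by -0.04. The median of all 46 targets was 0.09 at Post-2hr, and the mean was higher for 33 of them. Over all genes the median was -0.0066, and 48.2% of means were higher.

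The list of beta-catenin itself (Ctnnb1) and its nuclear partners includes the TCF/LEF factors, the BCL9 and Pygopus co-activators and the Groucho/TLE co-repressors. Of 17 measured, 14 had a higher mean at End than in Control (median 0.08) and 14 a lower one at Post-24hr than in Control (median -0.13), and none passed the adjusted threshold in limma, with 2 and 3 at an unadjusted p under 0.05, against 3.62% and 2.4% of all rows. From End to Post-24hr, 14 of 17 means were lower, with a median difference of -0.17 (-0.15 within replicates 2 and 3), against -0.02 over all genes. Without overlap, 10 of 17 were lower (58.8% of the list, against 6.84% of all rows), 6 had an unadjusted p under 0.05 in limma (5.77% of all rows), and 0 passed after adjustment. The count of 10 was 9 after median centring and 8 after quantile normalization.
The 10, named after their values were seen, were Ctnnb1, Lef1, Tcf7l1, Tcf7l2, Bcl9, Tle1, Tle3, Tle4, Ctbp1 and Hbp1. Activators and repressors of transcription were both among them, and Ctnnb1 and Lef1 were already counted above. Tle4, a co-repressor that binds TCF/LEF factors in the absence of beta-catenin, had means of 8.74 ± 0.08 (SD, n = 3) in Control, 9.14 ± 0.07 at End and 8.54 ± 0.22 at Post-24hr. Its End to Post-24hr difference was -0.60 ± 0.14 (SE), with an adjusted p of 0.475 in limma. For the TCF/LEF factors Tcf7l1 and Tcf7l2, the same difference was -0.42 ± 0.11 and -0.38 ± 0.10, with limma adjusted p-values of 0.556 and 0.566. These lists share the same 6 arrays, and genes on them are not independent of each other, so the counts describe the list and are no test of it.

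**Figure D4:**
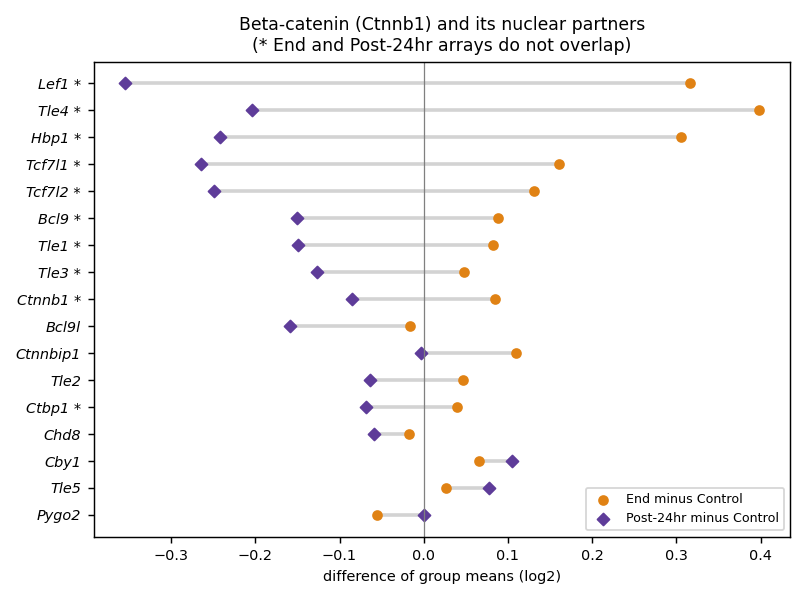
Difference of group means (log2, x axis) from Control at End (orange circles) and Post-24hr (purple diamonds) for 17 genes, Ctnnb1 and the nuclear partners of beta-catenin, ordered by the drop between the 2 harvests, with a star where the End and Post-24hr arrays did not overlap. Both points of a gene share the Control arrays, and Lef1 showed the widest drop, from 0.32 to -0.35.

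Of the Frizzled and LRP receptors and their relatives, 15 were measured. At End 12 of 15 means were above Control (median 0.09), and from End to Post-2hr 11 of 15 were lower (median -0.255, and -0.246 in replicate 1). Over all genes, 59.2% of means were above Control at End (median 0.02), and 43.1% were higher at Post-2hr than at End (median -0.03). Without overlap, 4 of 15 were lower over that step, against 7.86% of rows, and 0 passed the adjusted threshold in limma, with 2 at an unadjusted p under 0.05 against 6.24% of rows. These 4, named after their values were seen, were Fzd4 (-0.75 ± 0.24, SE), Fzd7 (-0.48 ± 0.20), Lrp5 (-0.30 ± 0.17) and Lrp6 (-0.26 ± 0.14). Set against replicates 2 and 3, replicate 1 was called lower for 11 of the 15 receptors and higher for 1, where 11% of all rows were called lower and 19.5% higher.

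The remaining lists held no call. The 21 ligands and secretion genes had median differences from Control of 0.03, 0.08 and 0.02 at End, Post-2hr and Post-24hr, and Wls, the carrier that brings Wnts to the surface, differed from Control at End by -0.11 ± 0.09 (SE, n = 3) with a limma adjusted p of 1. The 16 antagonists had -0.02, 0.03 and -0.03, with 8 means above Control at End and 8 below. Among them Sfrp2, a secreted Frizzled-related inhibitor, was 0.22 ± 0.10 above Control at End (limma adjusted p = 1). That difference was 0.42 in replicate 1 and 0.12 within replicates 2 and 3. Another of the 16, Apcdd1, differed from Control at End by -0.38 ± 0.30, without overlap. The 6 measured genes of the R-spondin axis had 0.04, 0.07 and -0.0055, the 22 of the destruction complex and relay -0.03, -0.02 and -0.02, and the 11 of cadherin-catenin adhesion 0.05, 0.03 and -0.06. In the destruction complex and relay, Dvl2, a Dishevelled protein, was 0.25 ± 0.10 above Control at End (limma adjusted p = 1), without overlap. The 4 relatives of Ccnd1 and Sox4 had medians of -0.06, -0.10 and 0.07, and among them Sox11 was 0.46 ± 0.16 above Control at End (limma adjusted p = 1), also without overlap, by 0.06 in replicate 1 and 0.67 within replicates 2 and 3. Without overlap at End, 1 of the 16 antagonists was higher and 1 lower. In the same comparison 2 of the 22 destruction complex and relay genes and 1 of the 4 relatives were higher. None of the ligand, R-spondin axis or adhesion genes separated there. Of all rows, 7.63% did not overlap in that comparison, with 4.69% higher, so single separations of this kind are common.

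The genes whose levels went most closely with Lef1 and with Axin2 were sought among 8435 named genes in the upper part of the arrays' range, by Pearson r over 12 arrays after replicate 1 and replicates 2 and 3 were each set to their own mean. For Lef1 they were Cfap410 (r = 0.939), Scx (r = 0.916), a tendon transcription factor, and Cirbp (r = 0.912), a cold-inducible RNA-binding protein. For Axin2 they were Lmna (r = 0.933), which encodes lamins A and C, St3gal2 (r = 0.925) and Baiap2 (r = 0.914). Without that adjustment r was 0.877, 0.897 and 0.72 for the first 3 and 0.882, 0.568 and -0.104 for the others, so the likeness of Baiap2 to Axin2 exists only after it. The same 12 arrays serve every gene and these were the highest r of many, so the values are a description and carry no p.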

How the data were processed

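RNA of 12 samples was read on Affymetrix Mouse Exon 1.0 ST arrays, whose probes over many exons were combined into 1 value a gene, per the labels' protocols. The authors deposited log2 values; RMA and Partek are named in the submitters' processing notes, and the sources used here give neither settings, versions nor genome build. As usually run, RMA corrects background and normalizes by quantiles, and its fold changes of dim rows tend to be compressed. The deposited table has 23332 rows and no missing value: 14996 rows had 1 gene symbol in the platform annotation, 1019 had several and 7317 had none. A gene took its brightest row.

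From these values, limma 3.58.1 (R 4.3.3; lmFit and eBayes) fitted 1 mean per group over all 12 arrays and all rows. Benjamini-Hochberg adjustment ran over all rows, with a threshold of 0.05; the residual degrees of freedom were 8 and the prior 2.16. Having 3 arrays a group limits the precision. In a simulation of the Post-2hr and Control comparison over 23332 rows, 93 of 100 changes of 2 log2 units and 60 of 100 of 1 were recovered. Replicate 1 was also set apart by a term with 2 levels, and arrays were left out, rescaled, reweighted or filtered as alternatives. The numbers 1 to 3 are labels only: deviations from group means correlated between groups at 0.522 to 0.723 for number 1, 0.0294 to 0.342 for number 2 and 0.25 to 0.535 for number 3.

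The 10 genes, the role lists and the comparison of replicate 1 were chosen with earlier results of these data known. By rule, all 10 genes, each list's extreme genes by moderated t in the 3 comparisons with Control, every called gene and the 3 genes most like Axin2 and the gene with the largest F could be named; other names were chosen after values were seen. Figures were drawn with matplotlib 3.10.9 (Python 3.11.15).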

Additional observations from a re-analysis of the deposited data

How the results depend on the processing

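None of the 30 differences of the 10 genes from Control passed the adjusted threshold of 0.05 in any of 24 alternatives, of which 12 left out 1 array each and 12 changed the replicate term, scaling, filter, variance model, weights or samples. Direction held in every alternative for 15 of the 30, Lef1 in all 3 comparisons among them, with Lef1 between 0.202 and 0.414 at End and between -0.468 and -0.244 at Post-24hr. Post-24hr minus End, examined after seeing the data, stayed between -0.744 and -0.584 for Lef1 and between -0.756 and -0.57 for Sox4, with a lowest adjusted p of 0.0993 and 0.209.

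Direction turned in 6 of the 30 under alternatives that left out no single array; the cause was not tested. With array weights (0.339 to 5.86), Rnf43 at End was -0.0421, Ctnnb1 at Post-2hr -0.0384, and Nkd2 and Gsk3b at Post-24hr 0.0342 and 0.0101. With replicates 2 and 3 alone, Ctnnb1 and Nkd2 at Post-2hr were -0.0352 and -0.0127, and Gsk3b at Post-24hr was 0.0205. Sox4 at Post-2hr was 0.0139 after median centring and 0.0189 after quantile normalization. Post-24hr minus End turned for Nkd1 (-0.0229 with replicates 2 and 3 alone, -0.00914 with weights) and for Lgr5 (0.031 and 0.0135).

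Leaving out 1 array turned 15 of the 30, each of them smaller than its SE with all arrays. At End the values ran from -0.0807 to 0.237 for Axin2, -0.206 to 0.0963 for Nkd2, -0.113 to 0.257 for Rnf43 and -0.193 to 0.354 for Ccnd1. At Post-2hr they ran from -0.072 to 0.244 for Axin2, -0.0262 to 0.105 for Ctnnb1, -0.0957 to 0.207 for Nkd2, -0.00148 to 0.114 for Lgr5, -0.385 to 0.0197 for Rnf43 and -0.325 to 0.18 for Sox4. At Post-24hr they ran from -0.323 to 0.00294 for Axin2, -0.0899 to 0.0217 for Nkd1, -0.171 to 0.14 for Nkd2, -0.229 to 0.0906 for Rnf43 and -0.0612 to 0.0444 for Gsk3b. For Post-24hr minus End they ran from -0.0336 to 0.0871 for Nkd1, -0.077 to 0.184 for Nkd2, -0.0368 to 0.0152 for Lgr5 and -0.306 to 0.0236 for Rnf43.

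The counts of all rows past the threshold moved more. The replicate block gave 38 for Post-2hr minus Control, 5 for Post-24hr minus Post-2hr and 2 for Post-24hr minus End, against 4, 0 and 0 without it, and it changed no call of the 10 genes; 4 of 4, 2 of 4 and 4 of 4 arrays numbered 1, 2 and 3 were most like their own number, a hint from the data and not the design. Setting replicate 1 apart gave 36 for Post-2hr minus Control, 36 for Post-2hr minus End (6 before), 2 for Post-24hr minus Post-2hr and 12 for Post-24hr minus End. Array weights gave 77, 3863 and 3 for End, Post-2hr and Post-24hr minus Control, and 378, 20 and 12 for Post-2hr minus End, Post-24hr minus Post-2hr and Post-24hr minus End. Replicates 2 and 3 alone, and likewise only the 2 groups compared, gave 0 for Post-2hr minus Control and 0 for Post-2hr minus End, with fewer samples in the fit. For Post-2hr minus Control, rows over the 50th percentile gave 10 and no variance moderation 2, and leaving out 1 array 1 to 5. For Post-2hr minus End an intensity trend gave 3 and leaving out 1 array 0 to 5. For Post-24hr minus End, median centring gave 6, rows over the 25th and over the 50th percentile 3 each, no variance moderation 2 and leaving out 1 array 0 to 6. The low filter removed Lgr5, and the higher one left 6 of the 10 genes.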
